A study of Mus musculus with 3 samples.

Results

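Genes of the Wnt pathway were described in sorted mouse haematopoietic stem cells. The genes were taken by symbol: all Wnt, Frizzled (Fzd), Dickkopf (Dkk), secreted Frizzled-related (Sfrp) and Dishevelled (Dvl) genes, together with Lrp5, Lrp6, Ctnnb1, Apc, Axin1, Axin2, Gsk3b, Tcf7, Tcf7l1, Tcf7l2, Lef1, Ryk, Ror1 and Ror2, wherever a probe set named that gene alone. This gave 53 of the 19938 genes measured, and Tcf7 is not analysed here. The samples were 3 single-colour arrays of wild-type marrow cells (strain C57Bl/6, age 6 to 10 weeks), referred to as arrays 1, 2 and 3 after their replicate numbers. The population, called KLS SLAM, was gated as lineage-negative, c-Kit+, Sca-1+, CD150+, CD48- and CD41-. All 3 arrays belong to a single group, so the questions open to the data are which genes of the pathway gave signal above background and how far each varied between arrays. The labels do not say whether the arrays came from separate animals, and the spread between them may be technical.

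Wnt proteins are secreted, lipid-modified ligands that bind Frizzled receptors together with the co-receptors LRP5 and LRP6. Without ligand, a cytoplasmic destruction complex built on Axin and APC lets the kinases CK1 and GSK3 phosphorylate β-catenin, which is then degraded. With ligand, Dishevelled proteins draw Axin to the membrane, β-catenin accumulates, enters the nucleus and acts with TCF/LEF factors on target genes, while ROR and RYK receptors serve branches that do not use β-catenin. In blood-forming tissue the pathway is known for effects on stem cell self-renewal and on lymphoid development that depend on its strength.

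Values are log2 of the authors' intensities, given as mean ± SD over the 3 arrays (n = 3) where no array is named. No detection calls were used. A background limit was set on each array at the 95th percentile of 1227 genes for smell, taste and pheromone receptors, which marrow cells should lack. The limits of arrays 1, 2 and 3 were 6.30, 5.98 and 5.77 log2. The term above the background range is kept for genes over the limit on each array. The limit says nothing certain about transcripts, since every probe set has its own affinity, and for the same reason the level of one gene is not set against that of another. In a bulk sample a low signal from fewer expressing cells and one from less RNA per cell cannot be told apart. Of the genes that the gate selects, Kit and Slamf1 (CD150) were above the background range. Of those it excludes, Itga2b (CD41) was also above it, at 6.51, 6.36 and 6.24 log2, and Cd48 passed the limit on array 3 alone, although the gate was set against both proteins.

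By role, the share of genes above background was highest in the cytoplasmic machinery of the pathway. Of the 53 genes, 16 were above the background range, a share of 30.2%, beside 36.8% of all genes (39.1% without the receptor genes that set the limit). The cytoplasmic transducers had 6 of 8 genes above it (75%). The receptors and co-receptors had 6 of 15 (40%), near the share of all genes. The ligands had 3 of 19 (15.8%), the nuclear factors 1 of 3 (33.3%) and the secreted antagonists 0 of 8. The whole set was thus not more often above the range than genes at large, and the differences between roles were not tested. Another 10 genes passed the limit on 2 arrays, 10 on 1 array and 17 on none. Of the 10 genes that passed on 2 arrays, 9 missed the limit on array 1 alone, where it was highest, so without array 1 the count was 25 of 53, beside 46.9% of all genes.

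**Figure D1:**
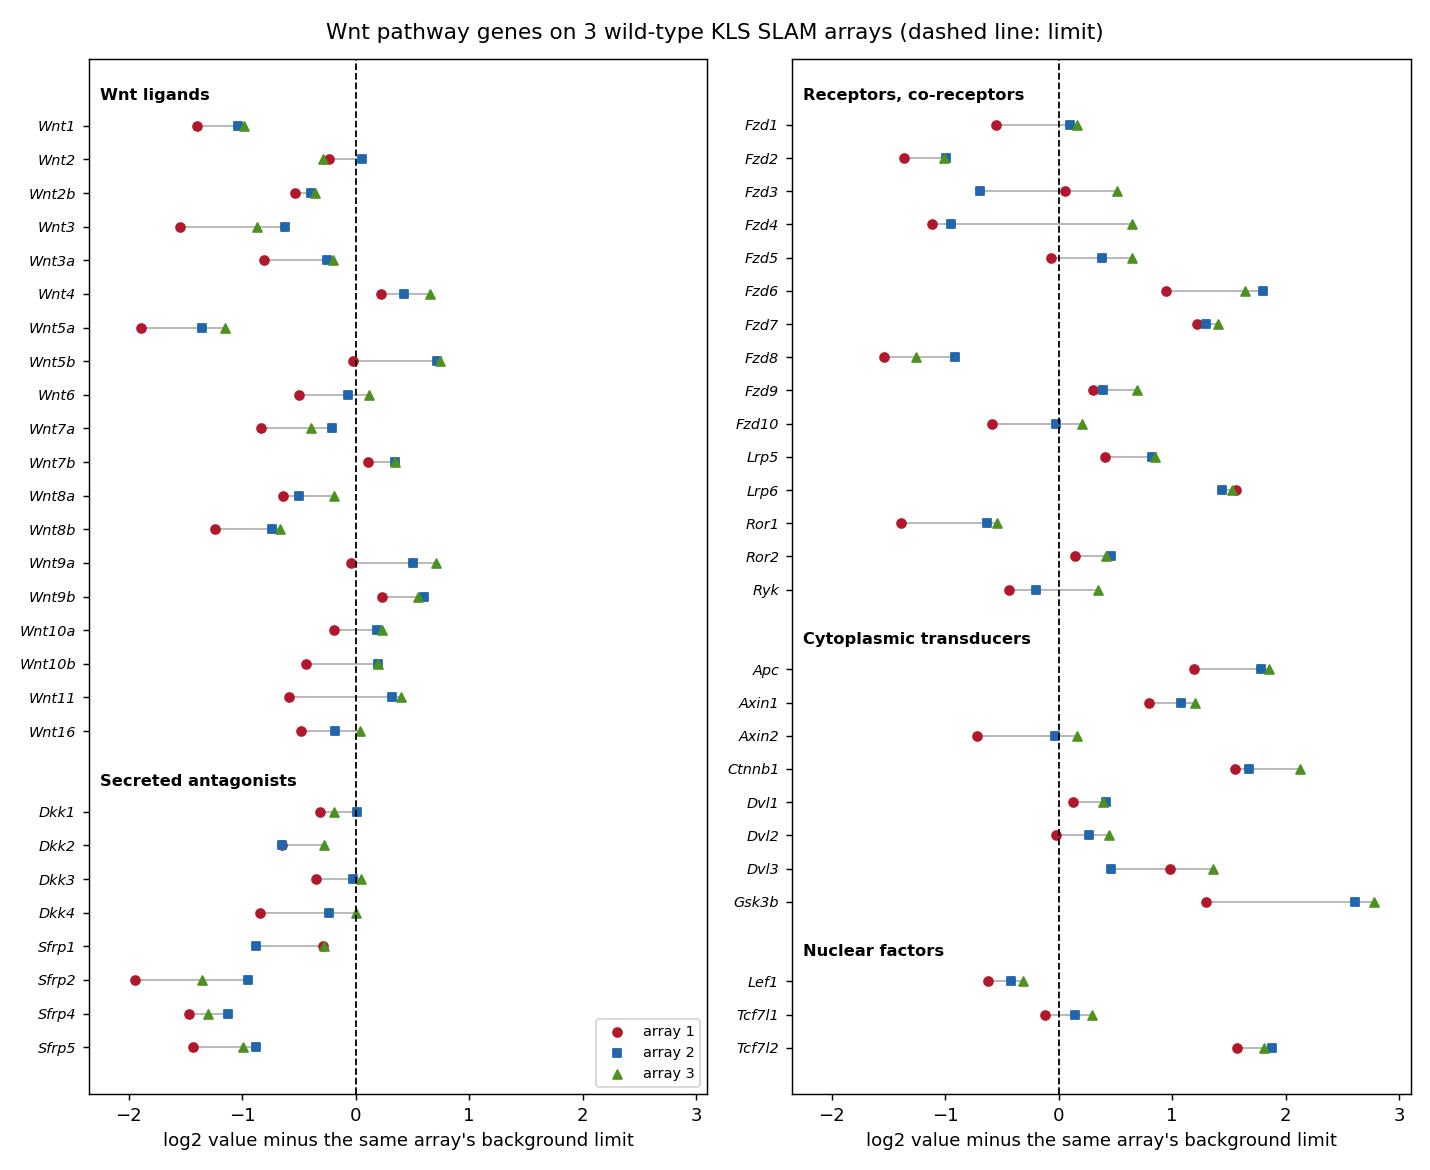
Each row is a Wnt pathway gene, and its 3 points give its log2 value on arrays 1 (circle), 2 (square) and 3 (triangle) minus that array's background limit, drawn as the dashed line at 0, with a grey line joining the lowest and highest point. All 3 points lie right of the line for 16 genes, most of them in the right panel of receptors, cytoplasmic transducers and nuclear factors, and for 48 of 53 genes, beside 77.9% of all genes, the leftmost point is array 1.

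At a stricter limit, the 99th percentile of the same receptor genes, 7 of the 53 genes (13.2%) stayed above on all arrays, beside 17.4% of all genes. They were the Frizzled receptor genes Fzd6 and Fzd7, the co-receptor gene Lrp6, the destruction complex genes Apc and Gsk3b, the β-catenin gene Ctnnb1 and the transcription factor gene Tcf7l2. They include receptors, a co-receptor, parts of the destruction complex, the signal carrier and a DNA-binding partner. With probe sets averaged, 0 of the 19 ligand genes were among them, although a single probe set of Wnt4 passed this limit on every array. On their weakest array these genes stood 0.95 to 1.57 log2 over the 95th percentile limit.

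The promoters of 3 genes at the edge of detection are shown as examples. Dkk1 and Wnt11 belong to the 3 genes in which the motif below was found, so the examples do not reflect how often it occurs. Axin2 is a widely used target gene that restrains the pathway, Dkk1 encodes an antagonist of LRP5 and LRP6, and Wnt11 encodes a ligand of the β-catenin-independent branches. Each sequence holds the 250 bases before a RefSeq start of the gene in GRCm38.p6, 5′ to 3′ on the gene's strand. Capitals mark a TCF/LEF motif, searched as CTTTGAA or CTTTGAT and, for the other strand, TTCAAAG or ATCAAAG. Spellings with a T after CTTTG were not searched, and the Dkk1 window also holds CTTTGTT, left in lower case. The counts below cover the searched spellings alone. Wnt11 has 2 starts in the table, and the start whose window holds a match is shown.
Axin2, chr11:108920099-108920348, plus strand: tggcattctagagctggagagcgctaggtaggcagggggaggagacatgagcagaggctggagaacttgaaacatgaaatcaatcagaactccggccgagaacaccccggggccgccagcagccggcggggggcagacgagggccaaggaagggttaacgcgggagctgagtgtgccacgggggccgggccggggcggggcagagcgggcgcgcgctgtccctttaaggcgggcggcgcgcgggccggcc
Dkk1, chr19:30549497-30549746, minus strand: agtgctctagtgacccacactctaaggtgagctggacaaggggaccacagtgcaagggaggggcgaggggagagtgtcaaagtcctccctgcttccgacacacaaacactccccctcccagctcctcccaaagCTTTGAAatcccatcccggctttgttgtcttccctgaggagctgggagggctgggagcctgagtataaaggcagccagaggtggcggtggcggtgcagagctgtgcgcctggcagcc
Wnt11, chr7:98834862-98835111, plus strand: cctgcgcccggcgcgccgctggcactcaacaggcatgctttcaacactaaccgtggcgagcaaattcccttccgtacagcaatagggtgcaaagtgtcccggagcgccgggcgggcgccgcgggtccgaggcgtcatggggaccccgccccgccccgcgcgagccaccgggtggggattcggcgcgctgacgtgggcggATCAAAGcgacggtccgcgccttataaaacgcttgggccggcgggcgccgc
Promoters were available for 37 of the 53 genes. A motif in a searched spelling was found in 3 of these, Dkk1, a start of Wnt11 and a start of Wnt5b. This is 8.11%, beside 8.63% of all 27025 genes with a promoter. The match began 117 bases before the start in Dkk1, 51 before that start of Wnt11 and 71 before that start of Wnt5b. The window of the other Wnt11 start held no match. The Axin2 window holds none of these letters in this order, and of the 10 genes above the background range with a promoter 0 had a match. Wnt pathway promoters were rich in G and C, with a median of 68% over the 37 genes, beside 52.4% over all genes. The median was 72.4% for the 10 genes above the range and 65.2% for the 27 others, given as a description without a test.

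Among the 19 ligand genes, Wnt4, Wnt7b and Wnt9b were above the background range, each by a small margin, which for Wnt4 holds for its averaged value. Wnt9b was at 6.52, 6.57 and 6.32 log2 on arrays 1, 2 and 3. Wnt7b was at 6.40, 6.33 and 6.11, only 0.11 log2 over the limit on array 1. Wnt4 was at 6.52, 6.41 and 6.43 as the mean of its probe sets, the only gene of the set with more than 1. Its probe sets disagreed: one gave 7.78, 7.14 and 7.33, above the limit on every array, and the other 5.26, 5.67 and 5.53, below it on every array. The place of Wnt4 above the range therefore rests on a single probe set. Mice use Wnt4 and Wnt9b in kidney development and Wnt7b in lung and kidney. With probe sets averaged, none of the 3 genes passed the 99th percentile limit on all arrays. The brighter Wnt4 probe set alone did pass that limit, which was 7.12, 6.67 and 6.43 log2 on arrays 1, 2 and 3.

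Another 5 ligand genes passed the limit on arrays 2 and 3 and missed it on array 1 alone. Wnt5b, at 6.28, 6.69 and 6.51 log2, missed it there by 0.02, and Wnt9a, at 6.25, 6.49 and 6.48, by 0.04. These near misses cannot be told from passing, given SDs of 0.21 for Wnt5b and 0.13 for Wnt9a. Wnt10a was at 6.11, 6.16 and 6.00, and Wnt10b, a ligand known from bone and T cells, was at 5.85, 6.17 and 5.96. Wnt11 was at 5.70, 6.29 and 6.17, with array 1 clearly lowest. On a single array the limit was passed by Wnt2, at 6.07, 6.04 and 5.48, by Wnt6, at 5.80, 5.90 and 5.89, and by Wnt16, at 5.82, 5.80 and 5.81. Wnt16, which has a role in stem cell specification in zebrafish, had an SD of 0.01.

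The remaining 8 ligand genes were below the limit on every array. They included Wnt3a, a ligand often used to activate β-catenin signalling in culture, at 5.59 ± 0.12 log2, Wnt1 at 4.88 ± 0.08 and Wnt3, which was at 4.74, 5.35 and 4.89 on arrays 1, 2 and 3. Wnt5a, the best-known ligand of the ROR receptors, was at 4.55 ± 0.13 and on array 1 exceeded only 50.4% of the receptor genes. Wnt2b, Wnt7a, Wnt8a and Wnt8b were at 5.58 ± 0.18, 5.54 ± 0.20, 5.57 ± 0.09 and 5.13 ± 0.10. Some Wnt genes are direct neighbours in the genome, and in the reference gene order 4 such pairs were found. Within the pair Wnt9b and Wnt3 only Wnt9b was above the limit on all arrays, and Wnt3 was above it on none. Wnt9a passed on 2 arrays beside its neighbour Wnt3a on 0, Wnt10b on 2 beside Wnt1 on 0, and Wnt10a on 2 beside Wnt6 on 1.

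Of the 8 secreted antagonists, 0 were above the background range. The Dickkopf proteins block LRP5 and LRP6, apart from DKK3, which is less clearly an antagonist. Dkk1 was at 5.98, 5.98 and 5.58 log2, at the limit on array 2 with a margin of 0.01. Dkk3 was at 5.95, 5.96 and 5.82 and Dkk4 at 5.45, 5.74 and 5.77, both over the limit on array 3 alone and by less than their SDs of 0.08 and 0.18. Dkk2 was at 5.49 ± 0.16 and below the limit throughout.

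The Sfrp proteins bind Wnt ligands outside the cell, and all 4 of their measured genes were below the limit on every array. Sfrp1, known in the marrow as a product of niche cells, was at 6.00, 5.10 and 5.49 log2, with array 1 highest and array 2 lowest. Sfrp2 was at 4.35, 5.03 and 4.41, and here array 2 was highest. Sfrp4 and Sfrp5 were at 4.72 ± 0.21 and 4.91 ± 0.16.

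Among the 10 Frizzled receptor genes, Fzd6, Fzd7 and Fzd9 were above the background range. Fzd6, whose protein is best known from planar cell polarity, was at 7.24, 7.77 and 7.40 log2 on arrays 1, 2 and 3. Fzd7, a receptor linked to stem cells of the gut, was at 7.52, 7.27 and 7.17. Both exceeded at least 99.3% of the receptor genes on each array. Fzd9, known for roles in B cell development and in bone, was at 6.60, 6.37 and 6.46, from 0.30 log2 above the limit.

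The other Frizzled genes lay near or below the limit, and Fzd3 and Fzd4 differed by over 1 log2 between arrays. Fzd5, at 6.22, 6.36 and 6.41 log2, and Fzd1, at 5.75, 6.08 and 5.92, missed the limit on array 1 alone. Fzd10 passed it on array 3 alone, at 5.71, 5.96 and 5.98. Fzd2 and Fzd8 were below it on every array, at 4.89 ± 0.12 and 4.78 ± 0.28. Fzd3, at 6.36, 5.29 and 6.27, passed on arrays 1 and 3 and fell well short on array 2. Fzd4, which is also the receptor of the eye vessel factor norrin, was at 5.17, 5.03 and 6.42, so that array 3 alone was above the limit.

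Both co-receptor genes were above the background range. Lrp6 was at 7.85, 7.41 and 7.30 log2 and Lrp5 at 6.71, 6.80 and 6.61. Lrp5 varied little, with an SD of 0.09, and array 1 was highest for Lrp6. Among the receptors of the β-catenin-independent branches, Ror2 was just above the range at 6.44, 6.44 and 6.19, Ryk passed on array 3 alone at 5.86, 5.78 and 6.12, and Ror1 was below throughout at 5.16 ± 0.23.

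**Figure D2:**
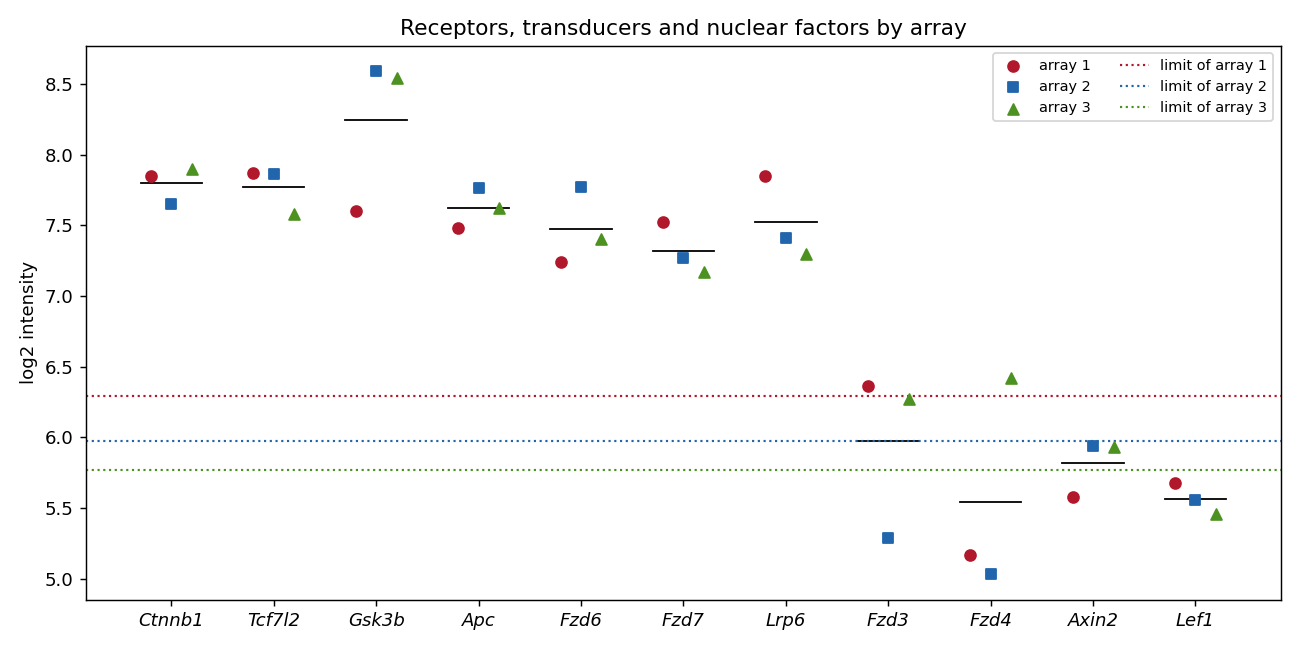
Points give the log2 intensity of 11 receptor, transducer and nuclear factor genes on arrays 1 (circle), 2 (square) and 3 (triangle), black bars their means over the 3 arrays, and dotted lines the background limit of each array in the array's colour. Ctnnb1, Tcf7l2, Gsk3b, Apc, Fzd6, Fzd7 and Lrp6 lie above all 3 limits, Fzd3 and Fzd4 fall on both sides between arrays, and Lef1 lies below every limit.

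The destruction complex gave signal on every array apart from Axin2. Apc, the scaffold that captures β-catenin, was at 7.48, 7.76 and 7.62 log2, and Axin1, the scaffold present in most tissues, was at 7.10, 7.05 and 6.97. Axin1 had an SD of 0.07, so its arrays were nearly level. Its paralogue Axin2, which β-catenin signalling induces in many tissues, was at 5.58, 5.94 and 5.93, above the limit on array 3 alone. On array 2 its margin was -0.03 log2, beside an SD of 0.21, and this near miss cannot be told from passing. Ctnnb1, which encodes β-catenin itself, was at 7.85, 7.65 and 7.90.

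Gsk3b, the kinase gene of the complex, differed most between arrays among the genes above the range. It was at 7.60, 8.59 and 8.54 log2, or intensities of 194, 384 and 373, a 1.98-fold range with array 1 lowest. The summed intensity of 7 granulocyte marker genes was also lowest on array 1, at 8927, against 14990 on array 2 and 13833 on array 3. The brightest, S100a8 at 12.08 ± 0.31 log2 and S100a9 at 12.37 ± 0.38, weigh most in this sum. Mpo went the other way and was highest on array 1, at 8.29, 7.53 and 7.88. Of the 7, 6 were above the background range (85.7%, beside 36.8% of all genes). The sum of 9 stem cell marker genes was lowest on array 1 too, at 3140, against 4231 and 3626. Its genes were split, and the bright genes Hlf, at 10.49 ± 0.30 log2, and Mllt3, at 10.18 ± 0.41, weigh most in it. Procr, Mllt3, Hoxb5 and Ctnnal1 were lowest on array 1 and Hlf and Fgd5 on array 3, while Mecom, Tek and Gata2 were highest on array 1. The sum of the 4 measured gate genes, which mixes selected and excluded ones, was highest on array 1, at 1442, against 1190 and 1167. It mostly reflects Kit, at 10.28, 9.92 and 9.85 log2, and Itga2b was also highest on array 1. Slamf1, at 6.41, 6.48 and 6.65, and Cd48, at 4.61, 5.62 and 6.14, were lowest on array 1. The part of these cells in the Gsk3b values was not tested. In the fit across all genes the spread of Gsk3b did not pass (limma F test, adjusted p = 0.994), and neither did that of any other gene.

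The Dishevelled genes, which pass the signal from Frizzled to Axin, lay closer to the limit. Dvl3 was above the background range at 7.28, 6.44 and 7.13 log2, with array 2 lowest. Dvl1 was above it at 6.42, 6.40 and 6.16, by as little as 0.13 on array 1. Dvl2, at 6.28, 6.25 and 6.20, missed it on array 1 alone by 0.02, less than its SD of 0.04. A call that separates Dvl2 from Dvl1 therefore lies within the spread between arrays.

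Of the 3 nuclear factor genes measured, Tcf7l2 was above the background range at 7.87, 7.86 and 7.58 log2, and on each array it exceeded 99.8% of the receptor genes. Tcf7l1, which encodes a factor that mostly represses, was at 6.18, 6.11 and 6.05 and missed the limit on array 1 alone. Lef1, a factor of lymphoid cells and a target of the pathway, was at 5.68, 5.56 and 5.46, below the limit on every array. T and NK cell markers, which mark cells known for Lef1, had 2 of 8 genes above the range (25%), beside 36.8% of all genes. These were Bcl11b at 6.53 ± 0.06 and Nkg7 at 6.61 ± 0.72, and the summed intensity of the 8 ran from 423 to 520. Cd3e, at 6.44, 5.91 and 5.91, passed the limit on arrays 1 and 3, while Cd3d, Cd3g, Cd4, Cd8a and Cd2 were below it on every array. The part of such cells in the values of the nuclear factors was not tested.

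Most pathway genes differed little between the 3 arrays. The median SD of the 53 genes was 0.16 log2, beside 0.22 over all 19938 genes, and 12 of the 53 (22.6%) had an SD above the trend fitted at their level, beside 43.8% of all genes. In the limma F test of each gene's variance against that trend, 0 of the 53 genes passed at an adjusted p of 0.05, beside 0 of all genes (0%). The trend was fitted to these same genes, and each variance had 2 degrees of freedom. Few genes could pass such a test, so the 0 does not show stable levels. At an unadjusted p of 0.05, 2 of the 53 passed, beside 5.1% of all genes. These were Fzd4, with a 2.62-fold range (adjusted p = 0.909 by limma), and Fzd3, with a 2.10-fold range (adjusted p = 0.955 by limma). Fzd4 intensities were 36.1, 32.7 and 85.7 and Fzd3 intensities 82.1, 39.1 and 77.4, so the arrays that stood apart were different ones. Next in order came Sfrp1 (limma, adjusted p = 0.976), Sfrp2 and Gsk3b (adjusted p = 0.994 for each). Array 2 held the highest value for 27 of the 53 genes, beside 38.6% of all genes, and array 3 for 6, beside 29.8%.

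**Figure D3:**
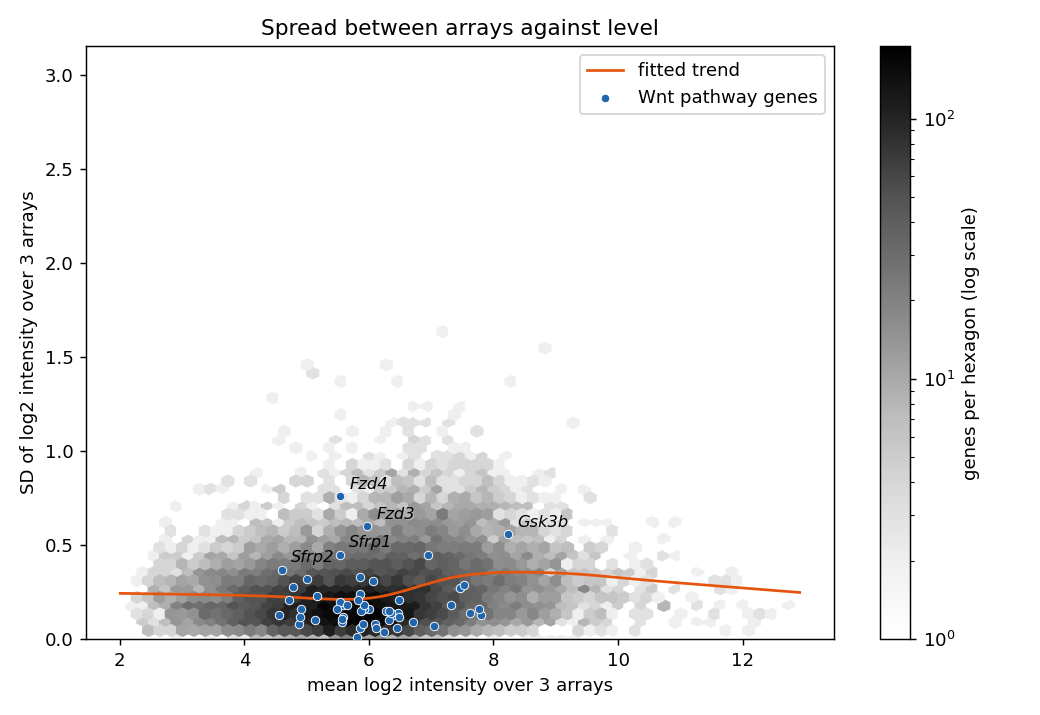
The SD of log2 intensity over the 3 arrays is plotted against the mean log2 intensity, with all 19938 genes as grey hexagons shaded by their number, the 53 Wnt pathway genes as blue points and the fitted variance trend as the orange line. Most blue points lie below the line, and the named genes, Fzd4, Fzd3, Sfrp1, Sfrp2 and Gsk3b, are the 5 with the smallest p for variation.

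The rest of the pathway was counted in the same way. Of 74 other pathway genes 32 were above the background range, a share of 43.2%, beside 36.8% of all genes. The genes grouped here with the destruction complex had 12 of 14 above it (85.7%). Among these were the casein kinase gene Csnk1a1, which encodes the kinase that primes β-catenin, at 8.97 ± 0.18 log2, the Gsk3b paralogue Gsk3a at 7.49 ± 0.24, and Btrc, whose product marks β-catenin for degradation, at 7.03 ± 0.07. The other kinase genes above the range were Csnk1d at 7.98 ± 0.46, Csnk1e at 7.01 ± 0.27, Csnk1g1 at 7.02 ± 0.45, Csnk1g2 at 7.93 ± 0.18 and Csnk1g3 at 7.55 ± 0.10. The 12 include the Csnk1g genes, although their products are not established partners of the complex. Tnks and Tnks2, whose enzymes turn over Axin, were at 7.68 ± 0.40 and 8.15 ± 0.27, Amer1 at 7.10 ± 0.54 and the phosphatase gene Ppp2ca at 8.98 ± 0.46. Apc2 and Fbxw11 were the exceptions, at 5.16 ± 0.07 and 5.93 ± 0.13.

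Few of the genes for ligand processing, R-spondins, their receptors and ligases, and other antagonists gave signal. Wls, which carries Wnt proteins to the surface of the cells that make them, was above the background range at 7.50, 8.32 and 7.81 log2, while Porcn, the enzyme that adds their lipid, missed it on array 1 alone at 5.91, 6.58 and 6.21. Of the 4 R-spondin genes, whose products strengthen Wnt signals, 0 were above it, and Rspo1 missed it on array 1 alone at 6.00 ± 0.11. Their receptors Lgr4, Lgr5 and Lgr6 and the ligases Rnf43 and Znrf3, which remove Frizzled from the surface, were below the limit on every array, 0 of 5, between 5.01 ± 0.12 for Lgr5 and 5.63 ± 0.23 for Lgr6. Of 11 other antagonists 0 were above it. They include the Dact and Nkd genes, whose products lie inside the cell. Sost at 6.42 ± 0.23, Kremen2 at 6.24 ± 0.24 and Dact3 at 6.27 ± 0.22 missed it on array 1 alone. Markers of stroma, osteoblasts and endothelium, cells known for several of these secreted products, had 4 of 10 genes above the range. This is 40%, beside 36.8% of all genes, and their summed intensities ran from 670 to 703. The 4 were Col1a1 at 6.74 ± 0.18, Col1a2 at 6.74 ± 0.03, Cxcl12 at 6.37 ± 0.32 and Pecam1 at 6.53 ± 0.45. Col3a1 passed the limit on 2 arrays and Alpl on 1, while Lepr, Sp7, Pdgfrb and Cdh5 were below it on every array. Their part in these values was not tested.

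Nuclear cofactors were above the background range for 10 of 18 genes (55.6%, beside 36.8% of all genes). Bcl9 and Bcl9l, which link β-catenin to the Pygo proteins, were at 7.48 ± 0.44 and 7.05 ± 0.19 log2, and the acetyltransferase genes Crebbp and Ep300 at 9.09 ± 0.07 and 8.46 ± 0.07. Of the Groucho corepressors, which hold TCF factors inactive, Tle2 and Tle3 were above it at 6.58 ± 0.14 and 6.60 ± 0.22. The corepressor genes Ctbp1, Ctbp2 and Hdac1 were at 7.28 ± 0.02, 6.53 ± 0.06 and 8.91 ± 0.29, and the kinase gene Nlk at 7.57 ± 0.49. Pygo2, Tle6, Ctnnbip1, Cby1 and Jup missed the limit on array 1 alone and Tle4 on array 2 alone.

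In the non-canonical arm 9 of 19 genes were above the background range (47.4%, beside 36.8% of all genes). All 9 encode enzymes or factors inside the cell that other pathways use too. The small GTPase genes Rhoa, Rac1 and Cdc42 were at 9.70 ± 0.36, 9.81 ± 0.23 and 10.32 ± 0.41 log2, and the calcium pathway genes Camk2d, Camk2g, Ppp3ca, Nfatc1 and Nfatc2 at 7.10 ± 0.22, 6.83 ± 0.06, 8.35 ± 0.17, 6.63 ± 0.16 and 6.67 ± 0.17. The JNK gene Mapk8 varied, at 7.23, 6.08 and 7.60. The polarity genes Vangl1, Vangl2, Prickle1, Prickle2, Ptk7, Celsr2 and Celsr3 were not above it, and Celsr1 missed it on array 1 alone.

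**Figure D4:**
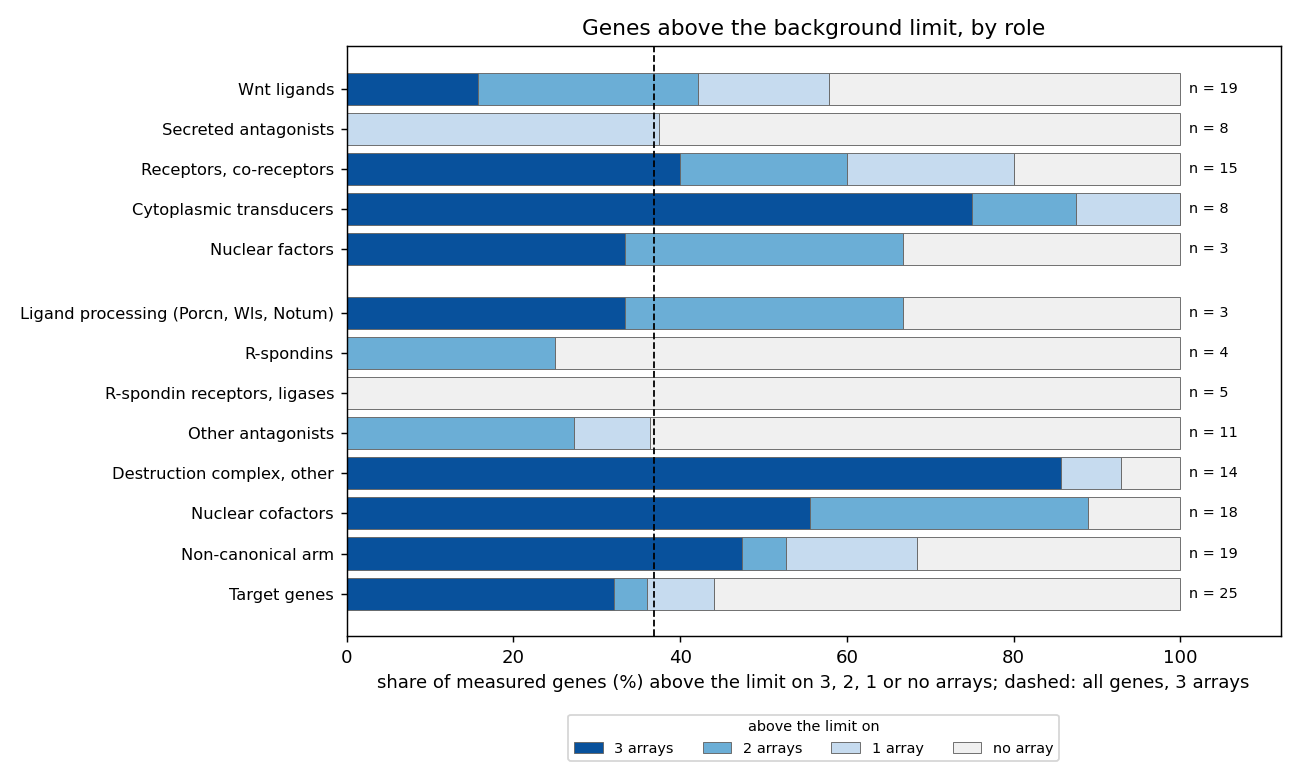
Bars divide the measured genes of each role, with n at the right, into those above the background limit on 3, 2, 1 or no arrays, as percent of the role; the upper 5 bars are the 53 Wnt pathway genes, the lower 8 the other pathway genes and the target genes, and the dashed line is the share of all genes above it on 3 arrays, 36.8%. The dark segment is widest for the cytoplasmic transducers (6 of 8) and the other genes grouped with the destruction complex (12 of 14). It is missing for the secreted antagonists, R-spondins, R-spondin receptors and ligases and other antagonists.

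Genes known as Wnt targets in other tissues were above the background range about as often as genes at large, 8 of 25 (32%), beside 36.8%. Those above it were Myc at 9.72 ± 0.34 log2, Mycn at 6.78 ± 0.21, the cyclin D1 gene Ccnd1 at 6.49 ± 0.15, Jun at 7.71 ± 0.24, the adhesion receptor gene Cd44 at 7.29 ± 0.14, Ppard at 6.62 ± 0.05, Birc5 at 6.81 ± 0.08 and Fgf18 at 6.42 ± 0.21. Several of these are also driven by other pathways. The feedback genes of the pathway itself, Axin2, Lef1, Nkd1, Rnf43, Znrf3, Notum and Lgr5, were not above it, and apart from Axin2 they were below the limit on every array. Cdx1 missed it on array 1 alone at 6.36 ± 0.14.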

How the data were processed

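RNA of sorted cells was column-purified, amplified and labelled with biotin, per the labels' protocols. Per the submitters' processing notes, RMA was run in Affymetrix Expression Console. Its version, and which arrays shared a run, are not stated. The authors' deposited values are intensities on a linear scale (2.82 to 18384), and log2 of them was used. RMA forces arrays run together onto one distribution, so differences in the distribution as a whole are largely removed. A difference between arrays remained in the receptor gene limits, and 39.3%, 49.1% and 55.2% of all genes passed those of arrays 1, 2 and 3. Median intensities were 60.4, 58.0 and 56.7, and the number of arrays limits the precision.

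Of 35554 probe sets, 21789 named 1 gene in the platform annotation, 1621 named several and 12144 were not listed. Probe sets of a gene were averaged on the log2 scale, giving 19938 genes. All 53 pathway genes matched a gene ID in the RefSeq table of GRCm38.p6, which supplied gene order and promoters. Variation was tested over all genes with limma 3.58.1 and statmod 1.5.0 in R 4.3.3: variance on 2 degrees of freedom against the robust trend (4.34 prior degrees of freedom, one-sided F test), with Benjamini-Hochberg adjustment at 0.05. Between arrays, Pearson's r across genes was 0.940 to 0.951.

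All 53 genes are named, and of the other pathway and target genes those above the range and those missing it on 1 array. Other genes named, cell type markers included, were chosen after their values were seen. Genes, lists and tests were chosen with earlier results of these data known. Alternatives covered the limit, the probe set rule, the normalisation, the variance prior and the omission of each array.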

Additional observations from a re-analysis of the deposited data

How the results depend on the processing

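The count of Wnt pathway genes above the background range, 16 of 53, depended on where the limit was set: it was 7 with the 99th percentile, 26 with the 90th and 26 when 2 of 3 arrays sufficed, beside 17.4%, 50.6% and 48.8% of all genes. Leaving out an array gave 16 to 25, the highest without array 1. It was 16 with olfactory receptors alone as background, with the brightest probe set and after quantile normalisation. With the 99th percentile the other pathway genes counted 19 against 32 and the target genes 3 against 8; leaving out an array gave 32 to 43 and 8 to 9. The count of genes that varied between arrays was 0 under all 8 alternatives, with 0 to 2 at an unadjusted p of 0.05. Each time the prior variance was fitted to the genes being tested, so this 0 does not show stable levels. A higher limit passes fewer genes by construction. After quantile normalisation the levels of all 53 genes moved by less than their SD. Wnt4, the only gene with more than 1 probe set, was at 7.42 with its brightest probe set, against 6.45. Omitting 1 of 3 arrays cannot move a mean by its SD, so it tests no level. No paired analysis was possible because all arrays belong to a single group.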
